A study of Mus musculus with 2 samples.

Results

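The genes described here are 36 genes of astrocytes, chosen by name from a fixed list and matched to the deposited gene tables by identifier and symbol. All 36 were found, among 42462 gene rows with a symbol. The tissue was mouse cerebral cortex, layer 5, labelled as wild-type C57Bl6 (B6NCrl in the source label), male and aged 8 months. From it 2 areas of 8000 square microns each, entered in the labels as 50 cells, were cut out by laser and made into 2 RNA-seq libraries, replicates 1 and 2. They are labelled as biological replicates with a biosample record each, but carry the same donor label. An SD or a ratio below therefore measures the spread between 2 captured areas, and whether it includes a difference between animals is not settled by the labels. No treatment was given and there is 1 group, so no test between conditions exists.

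Astrocytes are the star-shaped glia of the brain. They take up transmitters, buffer potassium and water at blood vessels and synapses, supply neurons with metabolites and lipids, and are coupled to each other through gap junctions. In grey matter such as layer 5 they are of the protoplasmic kind, known for low levels of the filament protein GFAP. After injury or disease astrocytes become reactive and are known to raise filament proteins, metallothioneins and a set of secreted and immune genes.

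Replicate 1 held 26059117 expected counts and replicate 2 held 28276843, where an expected count is an estimated number of reads for a gene. Levels are given in TPM, which is scaled for transcript length and library size, so that genes can be compared with each other. The 36 genes together took 0.579% of the counts in replicate 1 and 0.521% in replicate 2. Each area was a mixture of cells, so a lower value cannot be told apart as fewer astrocytes or as less RNA per astrocyte. Microglial marker genes summed to 396 TPM in replicate 1 and 132 in replicate 2, and 11 of 12 were more than 2-fold higher in replicate 1. Oligodendrocyte marker genes summed to 609 and 1196 TPM, and 8 of 12 were more than 2-fold higher in replicate 2. Of all protein-coding genes 3.61% were more than 2-fold higher in replicate 1 and 3.49% in replicate 2, on the log2(TPM + 1) scale. Neuronal marker genes summed to 9550 and 11032 TPM. Of the 5 ependymal and choroid plexus markers, 3 (Foxj1, Ttr and Tmem212) had 0 counts in both areas, as had 29.9% of protein-coding genes. Rarres2 had 2.34 TPM in replicate 1 and 0.08 in replicate 2, and Ccdc153 had 0.33 and 0 TPM.

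Astrocyte genes were present almost throughout. Of the 36 genes, 34 reached 1 TPM in both areas, against 51.4% of all 21461 nuclear protein-coding genes. The members were chosen with earlier results of these data known, so this share is a description and not a test. The medians of the members were 21.2 and 23.2 TPM, where all protein-coding genes had medians of 1.82 and 1.79 TPM and those at 1 TPM or more in both areas had 13.2 and 14.1 TPM. The 10 genes with a mean of 100 TPM or more compare with 5.69% of all protein-coding genes. The marker genes Aldoc, Apoe and Clu all lay above the 97th percentile of protein-coding genes, with 97.7 and 98.4 for Clu as the lowest percentiles of the 3. The range among members was wide, from a mean of 0.60 TPM for Gfap to 2103 TPM for Cst3, and the 5 highest genes of each library made up 73.0% and 71.4% of the summed TPM.

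**Figure D1:**
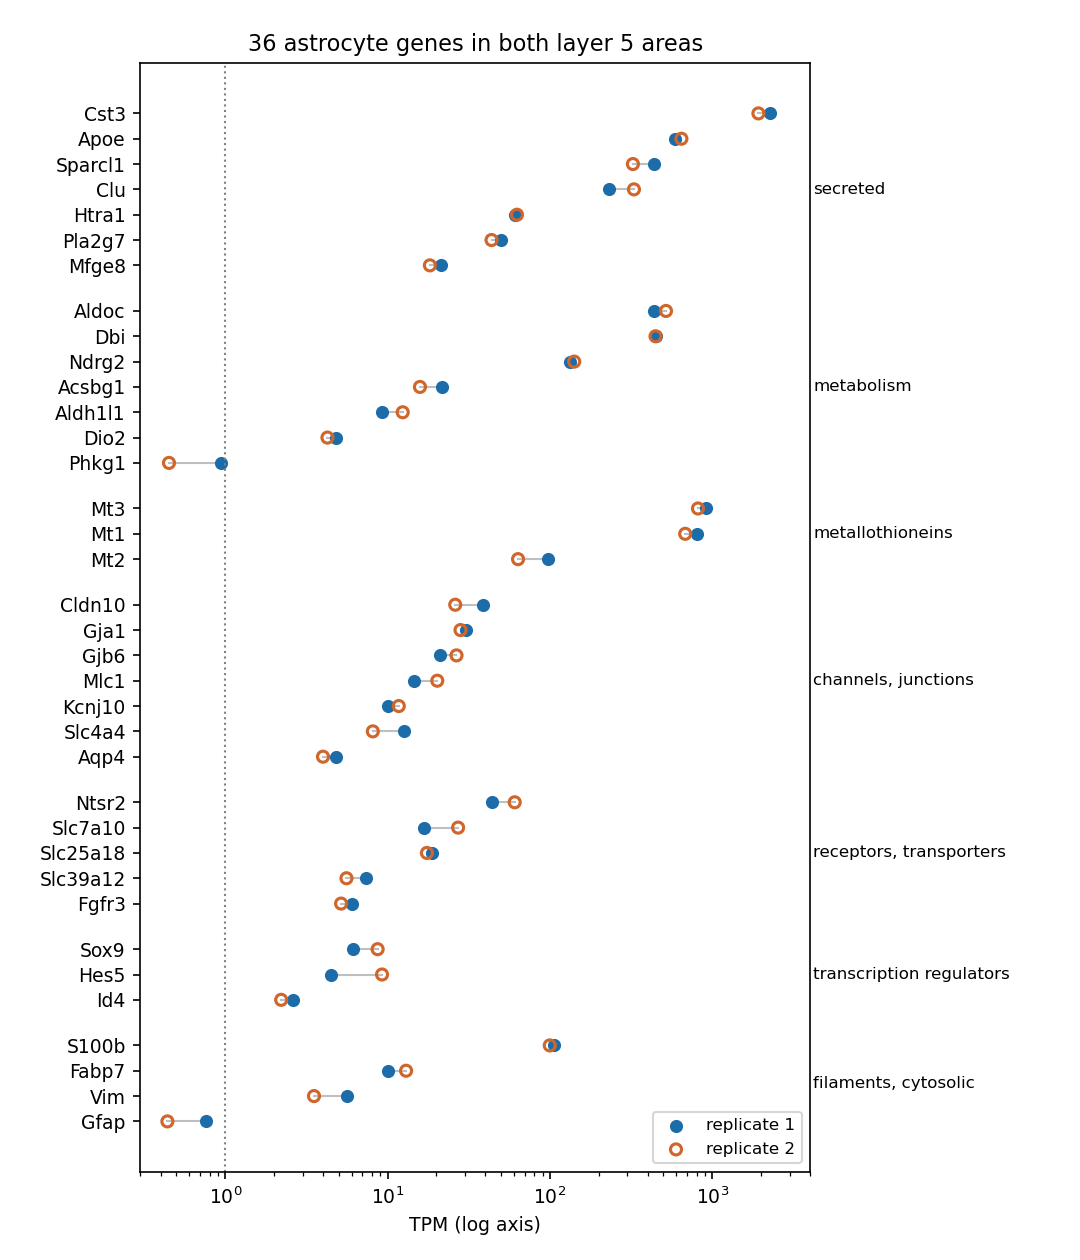
TPM (log axis) of each of the 36 astrocyte genes, grouped by role, with a filled point for replicate 1 and an open point for replicate 2 and a dotted line at 1 TPM. Both points lie close together for nearly every gene, from Cst3 near 2103 TPM down to Gfap and Phkg1, the only members left of the line in both areas.

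Genes for secreted proteins included the highest member, Cst3, and had medians of 232 and 324 TPM, below those of the metallothioneins at 800.2 and 681 TPM. Cst3, which encodes the protease inhibitor cystatin C and is also known in microglia and neurons (ENSMUSG00000027447.6, chromosome 2, 148871722 to 148875692, with mm10 positions throughout), had 2281 and 1925 TPM in replicates 1 and 2. Apoe, the lipid carrier apolipoprotein E (chromosome 7, 19696109 to 19699188), had 587 and 645 TPM. Sparcl1, a matrix protein that promotes synapse formation, had 436 and 324 TPM. Clu, the extracellular chaperone clusterin (chromosome 14, 65968483 to 65981547), had 232 and 329 TPM. The serine protease gene Htra1 had 60.8 and 62.7 TPM, Pla2g7, which inactivates platelet-activating factor and related lipids, 49.9 and 43.7 TPM, and Mfge8, a bridging protein for the uptake of dying cells, 21.3 and 18.2 TPM. Of these 7 genes 4 were higher in replicate 1 and 3 in replicate 2, where Apoe and Htra1 turned with spike-in scaling. None differed by more than 1.5-fold on the log2(TPM + 1) scale, which understates changes of low genes. Of all protein-coding genes 18.8% did, and of those at 1 TPM or more in both areas 45.3% were higher in replicate 1. Apoe and Cst3 are known in microglia as well, and the microglial markers were higher in replicate 1. Cst3 went the same way and Apoe the other (but not with spike-in scaling), and the part of microglia in either value was not tested. Clu, known in oligodendrocytes too, was higher in replicate 2 as their markers were, and their part was not tested either.

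Metabolic genes spanned nearly the whole range. Aldoc, the brain form of the glycolytic enzyme aldolase (chromosome 11, 78322968 to 78327781), had 437 and 519 TPM, and Dbi, an acyl-CoA-binding protein whose fragments act at GABA-A receptors, had 448 and 447 TPM. Ndrg2 had 132 and 141 TPM. The acyl-CoA synthetase gene Acsbg1 had 21.5 and 15.8 TPM, and Aldh1l1, a folate enzyme widely used to mark astrocytes, had 9.19 and 12.4 TPM. Dio2, which makes active thyroid hormone, had 4.80 and 4.26 TPM. Phkg1, a catalytic subunit of phosphorylase kinase, had 0.94 and 0.45 TPM, from 33.4 and 22.6 counts. It was with Gfap the only member below 1 TPM in both areas, and 11.1% of its 50-base words also occur in transcripts of other genes, so its low value is uncertain.

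Genes for channels, junctions, receptors and transporters lay lower and closer together. Among those that couple astrocytes, the gap junction genes Gja1 and Gjb6 had 30.3 and 28.1 TPM and 21 and 26.6 TPM, so that Gja1 was 1.44 times Gjb6 in replicate 1 and 1.06 times in replicate 2. The water channel gene Aqp4 had 4.78 and 4.0 TPM, and Kcnj10, a potassium channel that clears potassium from the extracellular space, had 10.1 and 11.7 TPM. Mlc1, a membrane protein whose loss causes a leukodystrophy with cysts, had 14.6 and 20.2 TPM. Cldn10, a claudin, had 38.8 and 26.1 TPM, and the bicarbonate cotransporter gene Slc4a4 had 12.7 and 8.11 TPM. Ntsr2, a neurotensin receptor, led the receptors and transporters with 44.2 and 60.7 TPM, while the growth factor receptor gene Fgfr3 had 6.03 and 5.17 TPM. Slc7a10, which carries glycine and D-serine, had 16.7 and 27.2 TPM, the mitochondrial glutamate carrier gene Slc25a18 18.7 and 17.5 TPM, and the zinc transporter gene Slc39a12 7.34 and 5.58 TPM. These 12 genes, all at a mean above 4 TPM, included 7 that were higher in replicate 1 and 5 in replicate 2, and only Slc7a10 passed 1.5-fold on the log2(TPM + 1) scale. Without the pseudocount Slc4a4 passed it as well, at 1.56-fold by TPM, as did 36.9% of protein-coding genes above 0 TPM in both areas. With the pseudocount 18.8% of all protein-coding genes passed 1.5-fold. Of those at 1 TPM or more in both areas, 45.3% were higher in replicate 1.

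Among the transcription regulators Sox9, which keeps the glial fate, had 6.14 and 8.68 TPM, the inhibitor of DNA binding Id4 2.62 and 2.21 TPM and Hes5 4.46 and 9.24 TPM. Hes5 is a target of Notch signalling that represses neuronal genes. On the log2(TPM + 1) scale it had the largest difference of the members. By counts Slc4a4 and Vim, at 2.42-fold and 1.89-fold higher in replicate 1, were further apart. Its 113 counts in replicate 1 and 219 in replicate 2 gave a log2 ratio of -0.91 and a fold by counts per total of 1.79 in favour of replicate 2, with an exact Clopper-Pearson 95% interval of 1.42 to 2.26 that covers counting error only. Of its 50-base words, 21.8% also lie in a transcript on the opposite strand, Gm20421, which had 0.10 and 0 TPM. The bases before the start of Hes5 are shown because this gene differed most on the log2(TPM + 1) scale. They lie at chr4:154960673-154960922 on the plus strand (RefSeq, GRCm38.p6), read 5′ to 3′, with copies of TGGGAA, the core that the Notch effector RBPJ binds, on either strand in capitals.
Hes5: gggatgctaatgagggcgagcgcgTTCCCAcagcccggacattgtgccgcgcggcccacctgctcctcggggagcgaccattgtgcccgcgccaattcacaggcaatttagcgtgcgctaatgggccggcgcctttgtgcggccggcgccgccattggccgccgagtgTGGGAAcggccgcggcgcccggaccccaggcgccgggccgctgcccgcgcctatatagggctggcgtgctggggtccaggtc
The window from 250 bases before to 50 after the start held 2 copies, and 3.79% of 32817 such windows held at least 2. A match of letters is not a bound site.

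The metallothioneins are small proteins that bind zinc and copper, and their genes sit side by side on chromosome 8. Mt3, the brain form that neurons are known to make too (94152607 to 94154146), had 909 and 817 TPM. Mt1 (94179082 to 94180327) had 800.2 and 681 TPM, and Mt2 (94172664 to 94173568), the gene between them, had 97.4 and 63.6 TPM. Mt1 was thus 8.21 times Mt2 in replicate 1 and 10.7 times in replicate 2. All 3 were higher in replicate 1, with log2 ratios of 0.15, 0.23 and 0.61 for Mt3, Mt1 and Mt2, and they stayed so under each of the 7 other scalings and pseudocounts run. Of protein-coding genes at 1 TPM or more in both areas, 45.3% were higher in replicate 1. Mt2 shares no 50-base word with Mt1 or Mt3. It shares 45.8% of them with Gm45774, a transcript annotated on the other strand in a later release than the one used for the tables. The bases before the starts are shown because these neighbours were higher in the same area. Each window ends at the base before the first annotated start (RefSeq or GENCODE), all on the plus strand, with TGCACNC or TGCGCNC on either strand in capitals. These are the core of the metal response element, where zinc-activated transcription factor MTF binds. The windows are chr8:94178839-94179081 for Mt1, chr8:94172368-94172617 for Mt2 and chr8:94152357-94152606 for Mt3.
Mt1: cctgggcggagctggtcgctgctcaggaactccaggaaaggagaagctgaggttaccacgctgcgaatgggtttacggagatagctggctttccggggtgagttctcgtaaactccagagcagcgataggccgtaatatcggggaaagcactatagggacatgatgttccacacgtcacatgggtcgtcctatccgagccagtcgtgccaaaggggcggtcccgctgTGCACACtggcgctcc
Mt2: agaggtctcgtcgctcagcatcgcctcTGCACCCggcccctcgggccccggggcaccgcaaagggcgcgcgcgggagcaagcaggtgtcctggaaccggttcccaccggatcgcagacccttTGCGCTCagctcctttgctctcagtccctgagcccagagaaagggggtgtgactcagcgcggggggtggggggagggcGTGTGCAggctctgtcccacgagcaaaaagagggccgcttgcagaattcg
Mt3: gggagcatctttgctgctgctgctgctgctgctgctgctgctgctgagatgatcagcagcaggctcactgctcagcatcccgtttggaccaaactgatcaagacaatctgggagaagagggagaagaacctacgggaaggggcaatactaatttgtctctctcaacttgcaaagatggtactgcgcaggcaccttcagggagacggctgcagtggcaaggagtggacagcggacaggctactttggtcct
With the first bases of each transcript included, the 300-base windows held 3 copies for Mt1, 4 for Mt2 and 1 for Mt3. Of all 32817 windows 25.7% held at least 1, 1.97% at least 3 and 0.518% at least 4. Here too a match of letters is not a bound site, and a part of this element in the levels was not tested. Other annotated Mt1 transcripts start further downstream, so bases nearer to those starts are not in the window.

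Among the reactive members Gfap, Vim and Fabp7 lay well below the metallothioneins. Gfap, the filament gene most used to mark reactive astrocytes (chromosome 11, 102887336 to 102900912), had 40 and 25 counts, or 0.76 and 0.44 TPM. Vim, another filament gene, which endothelial cells express as well, had 5.60 and 3.52 TPM. Fabp7, the brain fatty acid-binding protein of glial progenitors, had 10.02 and 13 TPM, and S100b, a calcium-binding protein also known in oligodendrocytes, had 106 and 99.7 TPM. Taking Gfap, Vim, Fabp7, Mt1 and Mt2 as the reactive members and the other 31 as homeostatic, the median was 10.02 and 13 TPM for reactive and 21.3 and 26.1 TPM for homeostatic members. The mean of log2(TPM + 1) was 0.68 ± 0.19 (SD, n = 2) higher for homeostatic members, with 0.54 in replicate 1 and 0.82 in replicate 2.

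That difference turned on which genes stood in each set. With S100b, Sox9, Clu and Apoe counted as reactive it was -0.56, and with homeostatic members limited to genes little expressed by other brain cells it was -0.57. Without Mt1 and Mt2, an alternative added after seeing the data, it was 2.95. Between the areas, 4 of the 5 reactive members were higher in replicate 1 with a median log2 ratio of 0.29, and 18 of the 31 homeostatic members with a median of 0.09. With 9 reactive members the median was 0.09 too, with 5 of the 9 higher in replicate 1, so this contrast also turned on the choice of genes. Of protein-coding genes at 1 TPM or more in both areas, 45.3% were higher in replicate 1, with a median of -0.05.

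Pan-reactive genes outside the 36, those known to rise in reactive astrocytes of several kinds, were near the background of protein-coding genes. Of 14 pan-reactive genes, 6 reached 1 TPM in both areas and 7 were below it in both, against 42.1% of all protein-coding genes. Lcn2, Timp1, Steap4 and Cxcl10 had 0 counts in both, as had 29.9% of protein-coding genes. With no read counted, a level of at most 0.115 CPM, the count scaled to its library's total, remains possible in replicate 1 and of 0.106 in replicate 2. Serpina3n, a secreted protease inhibitor, was the highest at 7.69 and 19.9 TPM and the only one of the 14 beyond 2-fold on the log2(TPM + 1) scale, with a log2 ratio of -1.26. Of all protein-coding genes 7.10% passed 2-fold, so 1 of 14 lies close to the background. Aspg, lower at 0.48 and 1.57 TPM, was 3.27-fold higher in replicate 2 by TPM alone. Stat3, a transcription factor of the cytokine response, had 6.40 and 9.93 TPM, the filament gene Synm 2.79 and 5.08 and the small heat shock gene Hspb1 3.70 and 3.97.

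Of 12 genes of the A1 list, named for astrocytes exposed to inflammatory signals, 4 reached 1 TPM in both areas, against 51.4% of all protein-coding genes. The complement gene C3 had 0 counts and Gbp2 had 0.12 and 0 TPM. The antigen presentation genes H2-T23 and H2-D1, at 14.3 and 56.6 TPM and 27.2 and 41.3 TPM, belong to a family of near-identical genes, so their values are uncertain. Srgn, a granule proteoglycan of blood and immune cells, had 9.73 and 1.23 TPM, in the direction of the microglial markers, whose part in it was not tested. The immunophilin gene Fkbp5 had 1.86 and 1.32 TPM. Of 12 genes of the A2 list, named for astrocytes after ischaemia, 2 reached 1 TPM in both, against the same 51.4%. S100a10, an annexin partner that layer 5 neurons are known to express, had 73.4 and 157 TPM. Sphk1 had 1.01 and 2.04 TPM, Tm4sf1 3.38 and 0.60 and Cd14 0.73 and 0.70. Of the 12 genes, 5 had 0 counts in both areas, Tgm1 and Slc10a6 among them, against 29.9% of all protein-coding genes.

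**Figure D2:**
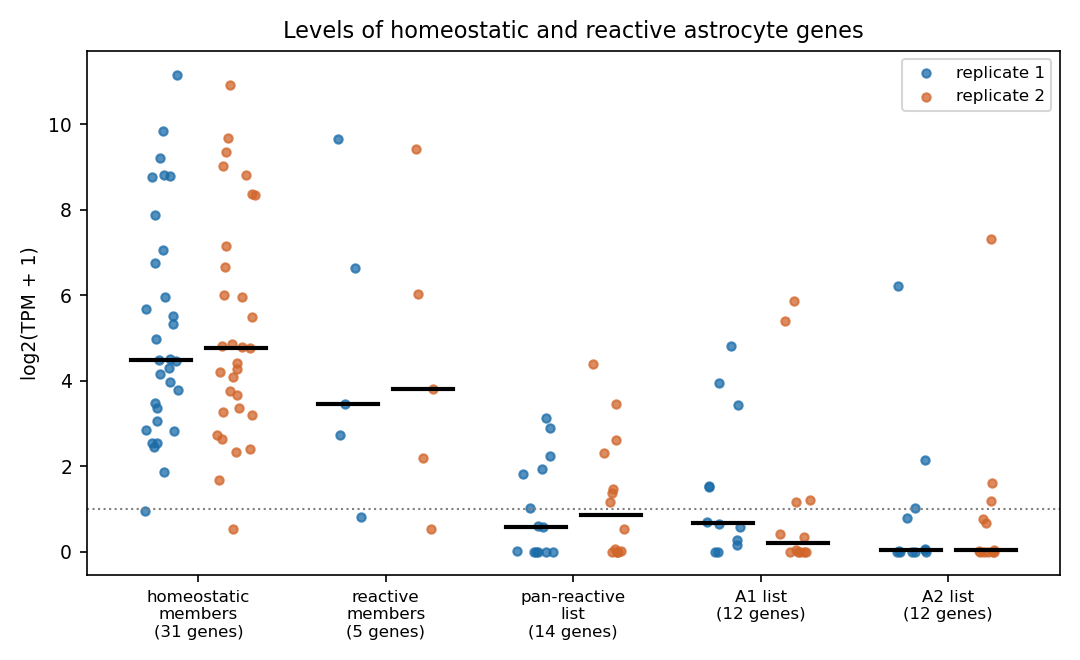
log2(TPM + 1) of single genes in replicates 1 and 2 for homeostatic and reactive members and for the pan-reactive, A1 and A2 lists, with a black bar at each median and a dotted line at 1 TPM. The medians of the 3 outside lists lie below the line in both areas, while homeostatic members have medians of 21.3 and 26.1 TPM.

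Most astrocyte genes differed little between the areas. On the log2(TPM + 1) scale none of the 36 passed 2-fold in either direction, where 7.10% of all protein-coding genes did (3.61% higher in replicate 1 and 3.49% in replicate 2). Among protein-coding genes averaging 5 TPM or more it was 6.11% (2.62% and 3.48%), so a count of 0 among 36 lies close to the background. Of the 36 genes 3 (Hes5, Slc7a10 and Mt2) passed 1.5-fold, on that scale, against 18.8% of all protein-coding genes and 20.1% of those averaging 5 TPM or more. By TPM with no pseudocount, a choice made later, Hes5 (2.07-fold higher in replicate 2) and Phkg1 (2.09-fold higher in replicate 1, from few counts) passed 2-fold, as did 20.4% of protein-coding genes above 0 TPM in both areas. Of the Hes5 value, Hes5-201 held 4.46 and 8.15 TPM and Hes5-202 held 0 and 1.09 TPM, the latter from 0 and 6.11 counts. With no pseudocount 7 members passed 1.5-fold, with Gfap, Vim, Slc4a4 and Phkg1 beside the 3 above, against 36.9%. By counts per total Slc4a4 was the only member beyond 2-fold. The median size of the log2 ratio, direction aside, was 0.27 for the 36 genes and 0.30 for protein-coding genes at 1 TPM or more in both areas. With direction, the median was 0.12: 22 members were higher in replicate 1 and the other 14 in replicate 2, of which Apoe, Ndrg2 and Htra1 turned with spike-in scaling. For protein-coding genes at 1 TPM or more in both areas the median was -0.05, with 45.3% higher in replicate 1. The 30 members averaging 5 TPM or more had a median of 0.05, with 16 higher in replicate 1. Pearson's r of log2(TPM + 1) between the areas was 0.990 across the 36 genes and 0.960 across protein-coding genes at 1 TPM or more in both, as a description of genes that share a library and are not replicates. Many of the ratios, though small, were wider than counting error. The exact interval of the ratio of counts excluded 1 for 29 members, as for 78.2% of protein-coding genes averaging 5 TPM or more. It included 1 for Ndrg2, Id4, Htra1, Dbi, Fabp7, Slc25a18 and Phkg1. Each side of a ratio is 1 library, so no p-value can be given.

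Genes of other glia were further apart in the same libraries. The median log2 ratio was 1.70 for the microglial list and -1.39 for the oligodendrocyte list. P2ry12, a purine receptor of resting microglia, had 30.9 and 2.27 TPM, the highest ratio of the microglial list, where Aif1 had 14.7 and 15.3 TPM. Cnp, an enzyme of myelin, had 20.0 and 63.5 TPM. Without 10 members that microglia or oligodendrocytes are known to express too, a choice made after the data were seen, the median log2 ratio of the other 26 astrocyte genes was 0.15, with 16 higher in replicate 1. The difference between the lists has no replicate check.

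**Figure D3:**
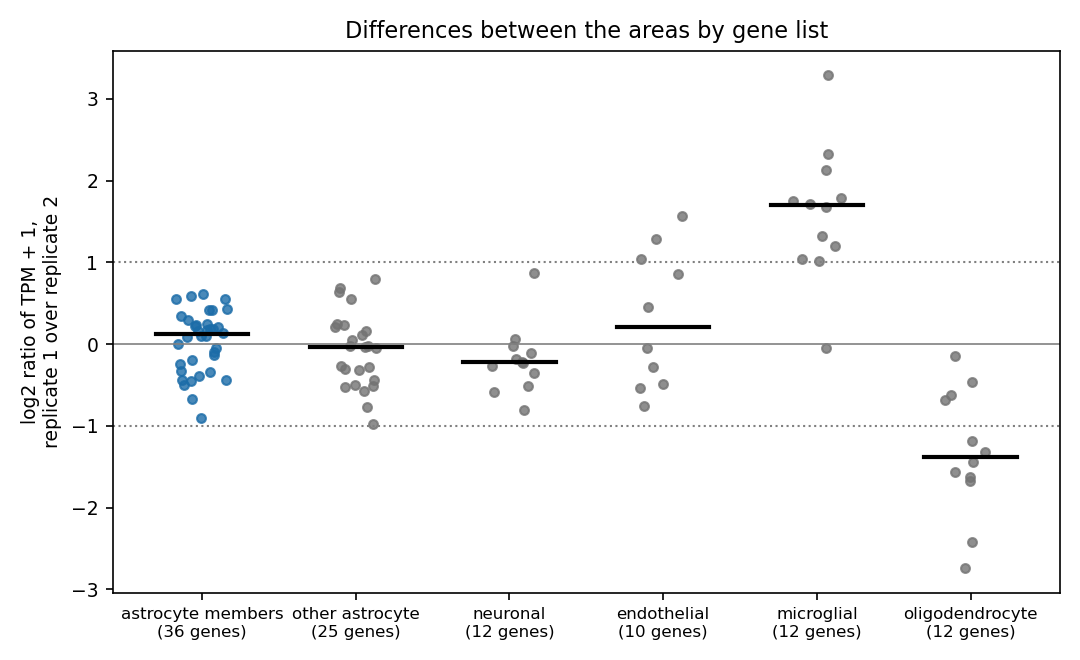
log2 ratio of TPM + 1 of replicate 1 over replicate 2 for every gene of 6 lists, with a black bar at each median and dotted lines at 2-fold. All 36 astrocyte members and all 25 other astrocyte genes lie between the dotted lines, while most microglial genes lie above and most oligodendrocyte genes below.

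A further 25 astrocyte genes all reached 1 TPM in both areas, against 51.4% of all protein-coding genes. This list too was chosen with earlier results of these data known, so the share is a description and not a test. On the log2(TPM + 1) scale none passed 2-fold, against 7.10% of all protein-coding genes, and 5 passed 1.5-fold. The share beyond 1.5-fold was 18.8% of all protein-coding genes and 20.1% of those averaging 5 TPM or more. The median log2 ratio of the 25 genes was -0.03, with 10 higher in replicate 1 and 15 in replicate 2. Among protein-coding genes at 1 TPM or more in both areas 45.3% were higher in replicate 1. Glul, which makes glutamine from glutamate and is known in oligodendrocytes too, had 166 and 283 TPM, and the peroxiredoxin gene Prdx6 193 and 236. Slc1a2, the main glutamate uptake carrier, had 81.6 and 101 TPM, and the chloride channel family gene Ttyh1 52.2 and 104 TPM, a log2 ratio of -0.98. The 4 listed genes known to vary with depth among cortical astrocytes were less alike. Of these, 1 was beyond 2-fold higher in replicate 1 (Eogt, at a mean of only 3.9 TPM) and 1 in replicate 2 (Il33). The shares of all protein-coding genes were 3.61% and 3.49%. Il33, a cytokine gene that oligodendrocytes also express, had 8.98 and 26.3 TPM, in the direction of the oligodendrocyte markers, whose part was not tested. Eogt had 5.78 and 2.05 TPM, the transcription regulator gene Id3 11.1 and 5.72, and Chrdl1, a secreted protein that matures synapses, 4.23 and 4.07 TPM.

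Transcript shares lay close together in the 2 areas for most of the abundant members. Of 11 members with a mean of 20 TPM or more and at least 2 listed transcripts, all had the same leading transcript in both areas, where 11.0% of protein-coding genes of the same kind had another. The share of a transcript was apart by over 10 percentage points in 1 of them, Slc7a10, against 34.3% of protein-coding genes of the same kind. By posterior mean shares it was again Slc7a10 alone, against 31.7%. Aldoc-202 held 75.7% and 75.4% of Aldoc, Apoe-209 92.2% and 91.7% of Apoe, and Clu-201 98.4% and 98.2% of Clu. For Cldn10, 2 protein-coding transcripts with different starts were used side by side, with Cldn10-201 at 69.1% and 69.8% and Cldn10-203 at 30.9% and 30.2%. Ndrg2 was likewise divided, with Ndrg2-202 at 69.0% and 76.6% and Ndrg2-201 at 31% and 23.4%. In Slc7a10 a transcript of 516 bases, ENSMUST00000168751.1, took 46.6% and 67.7% from 70 and 171 counts. This transcript has no match in the M21 annotation, so the count of shared 50-base words did not cover it. By counts the gene was 1.32-fold higher in replicate 2 (1.15 to 1.51, exact interval for counting error) and by TPM 1.62-fold. In M21 the gene shares 12.9% of its 50-base words with Lrp3 on the opposite strand. Lrp3 had 6.78 and 12.04 TPM, also higher in replicate 2, and its part in the Slc7a10 values was not tested.

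Slc4a4 had a different leading transcript in each area. At a mean of 10.4 TPM it lay below the level fixed for this comparison and was looked at after its values were seen. From 5 TPM upwards, also added later, 4 of 20 members (Aldh1l1, Hes5, Slc4a4 and Slc7a10) had a share apart by over 10 points, against 47.8% of protein-coding genes. Of the 20 members 1, Slc4a4, had another leading transcript, against 15.3%. The move in Hes5 rested on Hes5-202, with 0 and 6.11 counts. Vim, just below 5 TPM at a mean of 4.56 TPM, had another leading transcript too by deposited share. Vim-201 held 53.3% and 24.7%, and the retained-intron transcript Vim-203 44.8% and 47.9%. By posterior mean share Vim-203 led in both areas, at 44.23% and 45.45% against 42.93% and 23.43% for Vim-201. The counts were 134.7 and 40.51 for Vim-201 and 23.57 and 16.35 for Vim-203. Slc4a4-207, of 7931 bases, held 92.1% of the gene in replicate 1 and 41.1% in replicate 2, with 1964 and 581 counts. Slc4a4-208, of 3494 bases, held 6.17% and 50.0%, with 57.0 and 307 counts. The annotation gives Slc4a4-208 no exon at 89232764 to 89232860 of chromosome 5, a coding exon of 97 bases near the end of the protein, and ends it 3859 bases earlier than Slc4a4-207. Both transcripts are shown around that exon (capitals), with 30 bases on either side, from the GENCODE M21 transcripts on the plus strand, because it is the coding exon that only the first of them holds.
Slc4a4-207: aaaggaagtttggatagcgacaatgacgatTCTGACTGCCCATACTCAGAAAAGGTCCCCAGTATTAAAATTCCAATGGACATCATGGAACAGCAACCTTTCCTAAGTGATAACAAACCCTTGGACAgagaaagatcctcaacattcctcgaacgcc
Slc4a4-208: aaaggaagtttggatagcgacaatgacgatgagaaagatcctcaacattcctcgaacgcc
In the annotation the shorter transcript is thus joined directly across the exon. Reads over this exon were not counted, so its use in either area was not measured. The 2 transcripts also differ in the 3859 bases at the end, and which difference the shares rest on was not tested. The mean transcript length that the tables give for the gene was 7525 bases in replicate 1 and 5119 in replicate 2, and its fold depended on the scale. It was 1.56-fold higher in replicate 1 by TPM and 2.42-fold by counts per total (2.24 to 2.62, exact interval for counting error). On the CPM scale with TMM factors, where 6.33% of protein-coding genes averaging 5 TPM or more passed 2-fold, Slc4a4 was the only member to pass it, with a log2 ratio of 1.23.

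**Figure D4:**
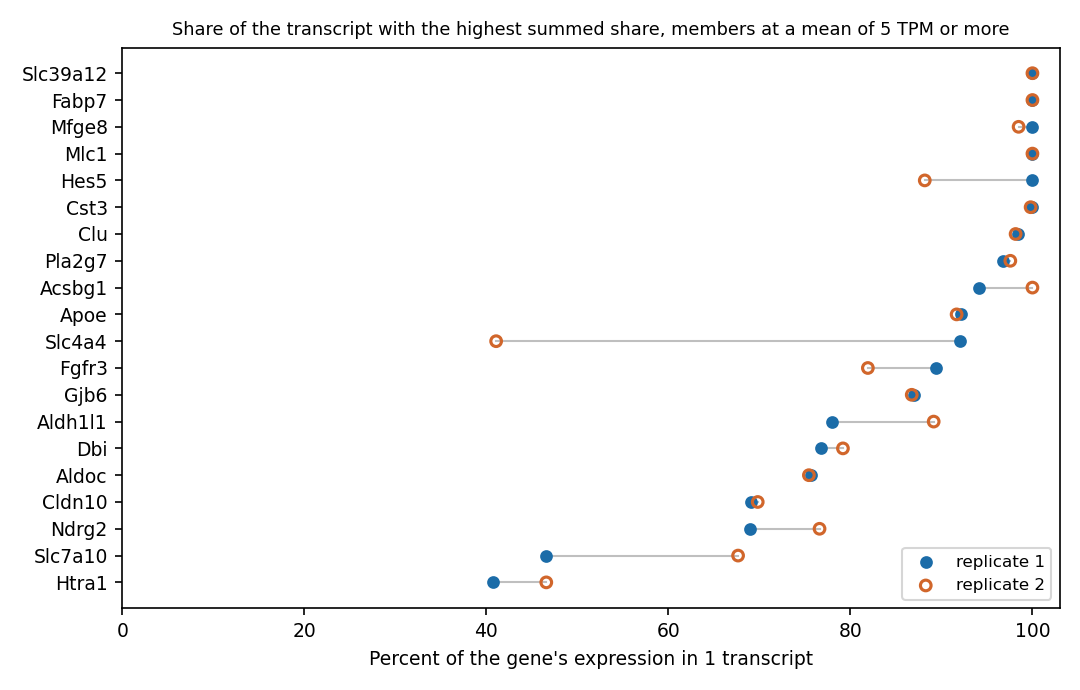
Percent of each gene's expression held by the transcript with the highest summed share over both areas, for the 20 members at a mean of 5 TPM or more with at least 2 listed transcripts, with filled points for replicate 1 and open points for replicate 2. Slc4a4 stands apart, at 92.1% and 41.1%, and Slc7a10 follows at 46.6% and 67.7%.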

How the data were processed

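RNA-seq was made from 2 laser-captured areas of 1 group. The deposited gene and transcript tables held expected counts per feature, TPM scaled by the authors to a fixed sum with spike-ins and mitochondrial genes included, posterior mean TPM, bounds of a TPM interval (a deposited score, not used), and for transcripts the percent of the gene as deposited. Build mm10 and annotation M4 stand in the deposited text files; the program, aligner and strand setting are not given in the sources used here. Symbols and positions came from GENCODE M21 (42462 of 43346 Ensembl rows matched). The 26248 rows numbered in place of a gene held 20.3 and 5 counts and were left out of lists.

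Levels were TPM, differences log2 ratios of TPM + 1 (replicate 1 over replicate 2), called beyond 2-fold, with exact Clopper-Pearson 95% intervals of count ratios, which cover counting error only, as do limits for counts of 0. Both libraries carry the same donor label but separate biological replicate numbers. Chi-square per degree of freedom between the libraries was 69.5 over 14131 features with at least 50 summed counts, so the files differ by more than counting noise. Rounded expected counts of nuclear genes gave TMM factors (edgeR 4.0.16) and size factors (DESeq2 1.42.0), both under R 4.3.3; other steps ran in Python 3.11.15 with scipy 1.17.1, pandas 2.3.3 and numpy 2.4.6, and plots in matplotlib 3.10.9. The ratio step was tested on simulated data. Words of 50 bases shared with other genes were counted in M21 transcripts on both strands; promoter windows came from RefSeq (GRCm38.p6).

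Members and lists were chosen with earlier results of these data known. All 36 members are named. From the other astrocyte and reactive lists up to 4 with the highest mean TPM, those beyond 2-fold averaging at least 5 TPM, and up to 2 below 1 TPM in both are named. Microglial and oligodendrocyte lists are given by sums and counts with examples, and the neuronal list by its sums. The endothelial list is shown in a figure only, and the lists of oligodendrocyte precursors, mural and meningeal cells are not described. Lcn2, Steap4, Ttr, P2ry12, Aif1, Aspg and Cnp were named after their values were seen. Alternatives covered the pseudocount (0.1), scaling, posterior means, filters, list choice and each library alone.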

Additional observations from a re-analysis of the deposited data

How the results depend on the processing

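The count of members at 1 TPM or more was 34 in each library alone and with posterior means, and 29 at 5 TPM. With spike-in scaling, which moved the median gene from -0.05 to 0.14, the median log2 ratio was 0.33 for all members, 0.30 for homeostatic and 0.50 for reactive members. The reactive median was 0.61 with a pseudocount of 0.1 and 0.09 with 9 reactive members. The count beyond 2-fold higher in replicate 1 was 1 with TMM factors, 1 with DESeq2 size factors and 1 with spike-in scaling, each time Slc4a4 (log2 ratios 1.23, 1.22 and 1.39), and the count higher in replicate 2 was 1 with a pseudocount of 0.1, Hes5 at -1.03. With no pseudocount 1 member was beyond 2-fold higher in replicate 1 (Phkg1) and 1 in replicate 2 (Hes5). Restricted members, those little expressed by other brain cells, were higher in replicate 1 for 10 of 18. Over the 7 other scales and pseudocounts, 4 members changed sign: Dbi, Apoe, Htra1 and Ndrg2. Homeostatic minus reactive was 0.54 to 0.82 in single libraries, -0.56 with 9 reactive members, -0.57 with restricted homeostatic members, 0.88 with a pseudocount of 0.1, 0.99 with medians and 2.95 without Mt1 and Mt2. Members with a transcript share apart by over 10 points were 4 from 5 TPM upwards. Ratios between the areas have no leave-one-out value, since each side is 1 library. No paired analysis was possible because there is 1 group. Depth limits Gfap and Phkg1, with at most 40 counts in a library.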
